A study of Mus musculus with 2 samples.

Results

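The genes described here are 8 lysosomal cathepsins (Ctse, Ctsb, Ctsc, Ctsd, Ctsh, Ctsl, Ctss and Ctsz) and Cst3, which encodes cystatin C, a secreted inhibitor of cysteine cathepsins. They are 9 of the 26124 genes counted in 2 single-cell RNA-seq libraries of mouse spleen, matched by gene symbol. The list was chosen by measured values of these same libraries, namely the rise of Ctse in several cell classes of the mouse with sickle cell disease (SCD), so the SCD to wild-type differences of all 9 genes are given as a description with no test. The library called SCD came from a spleen of a Berkeley mouse, homozygous for Hbatm1Paz, homozygous for Hbbtm1Tow and homozygous for the transgene Tg(HBA-HBBs)41Paz, and these mice sickle. The library called wild-type came from a control that is homozygous for Hbatm1Paz, heterozygous for Hbbtm1Tow and hemizygous for Tg(HBA-HBBs)41Paz, and does not sickle. Both animals therefore carry Hbatm1Paz on both chromosomes and the human globin transgene, which is driven by globin control elements. They were 12 to 16 weeks old, were not treated, and came from a line of mixed genetic background. Dendritic cells (DCs) were enriched from each suspension by depleting other cells with magnetic beads after lysis of red blood cells. There was 1 animal per group, so genotype, animal and library cannot be told apart, and every interval below is a 95% interval that covers counting error only.

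After filtering, 9423 wild-type cells (60845405 unique molecular identifiers, UMIs, median 4884 per cell) and 10635 SCD cells (99608356 UMIs, median 8282) were kept, and 22 kept barcodes occurred in both libraries. In the erythroid-like class, Hbb-bs stood at 282085 CPM (UMIs of the gene scaled to a common total of the class) in wild-type and 2779 CPM in SCD, and Hbb-bt at 82043 and 428 CPM, the direction of the labelled Hbb genotypes. Hba-a1 was at 109509 and 113628 CPM in that class although both animals carry Hbatm1Paz. Whether reads of the human transgene were counted there was not tested. Cells fell into 26 clusters, and 10 classes with at least 50 cells in each library were compared. These were cDC1-like cells (162 wild-type and 215 SCD cells), cDC2-like cells of the Clec4a4 and Dtx1 type (1384 and 213), cDC2-like cells of the Cd209a and Clec10a type (164 and 122), mature DC-like cells (618 and 86), plasmacytoid DC-like cells (720 and 591), classical monocyte-like cells (560 and 903), non-classical monocyte-like cells (433 and 55), red pulp macrophage-like cells (285 and 156), neutrophil-like cells (4346 and 7081) and erythroid-like cells (57 and 72). The suffix is left out below. Despite the enrichment for DCs, neutrophils were 46.1% of the cells kept in wild-type and 66.6% in SCD.

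Cathepsins are proteases of endosomes and lysosomes that are made as inactive precursors and become active as the compartment acidifies. Ctsd and Ctse are aspartic proteases, and Ctsb, Ctsc, Ctsh, Ctsl, Ctss and Ctsz are cysteine proteases. In antigen-presenting cells, cathepsin S cleaves the invariant chain that guards MHC class II molecules, cathepsin C activates granule serine proteases of neutrophils, and cathepsins B, D and L break down proteins taken up by macrophages. Red pulp macrophages are the cells that clear aged red blood cells in the spleen. Lysosomal genes are known targets of TFEB and related factors, which bind an E-box called the CLEAR element.

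In the GRCm38 annotation (GENCODE), Ctse lies on chr1:131638306-131675505, Ctsd on chr7:142375911-142388038, Ctsb on chr14:63122462-63145923, Ctsc on chr7:88278085-88310888, Ctsh on chr9:90054152-90076089, Ctsl on chr13:64359337-64370890, Ctss on chr3:95526786-95556403, Ctsz on chr2:174427493-174439039 and Cst3 on chr2:148871722-148875692. All 9 are protein-coding genes, and the values are reads near the 3′ ends of their transcripts. Of the annotated genes that overlap them, Gm49369 lies on the same strand as Ctsd and had 0 UMIs against 45937 for Ctsd in the kept cells. The pseudogenes Gm49230, which overlaps Ctsl, and Hmgb1-ps5, which overlaps Ctss, also lie on the same strand and were not analysed here. Promoter sequences from RefSeq (GRCm38.p6) were matched for 6 of the 9 genes, Ctsc, Ctsd, Ctsl, Ctss, Ctsz and Cst3. Ctsd is shown because it was higher in some classes of SCD and lower in others, and Ctss because it is the cathepsin of invariant chain processing in the enriched cells. The E-box CACGTG, which reads the same on both strands, was found in the 250 bases before the RefSeq start of Ctsd at 2 places and of Ctsl at 1, and in no other of the 6. The 250 bases of Ctsl (chr13:64370521-64370770) lie wholly within the annotated Ctsl gene. The E-box occurred in 6.02% of the 32851 promoters of the table, and its longer form TCACGTGA, found in Ctsd at the site nearer to the start, in 0.785%. The windows of 30 bases around both Ctsd sites follow, 5′ to 3′ on the minus strand, with the E-box in capitals. The site nearer to the start lies within an annotated UTR of a longer Ctsd transcript.
Ctsd, chr7:142388048-142388077, E-box 245 bases before the start: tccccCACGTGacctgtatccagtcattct
Ctsd, chr7:142387908-142387937, E-box 98 bases before the start: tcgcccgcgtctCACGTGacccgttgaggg
The promoter of Ctss held no E-box. It held 1 match to GAAA, any 2 bases and GAAA again, a form of the element bound by interferon regulatory factors, searched on both strands and present in 2.98% of promoters. The match is in capitals and its first base lies 21 bases before the start.
Ctss, chr3:95526536-95526785, plus strand: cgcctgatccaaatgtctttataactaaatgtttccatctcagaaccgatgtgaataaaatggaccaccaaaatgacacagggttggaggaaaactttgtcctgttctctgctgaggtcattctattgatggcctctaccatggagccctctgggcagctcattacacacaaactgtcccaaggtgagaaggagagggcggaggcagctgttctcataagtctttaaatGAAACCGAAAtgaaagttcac

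Over the 10 classes there were 90 pairs of a gene and a class, of which 73 passed the filter on low values (at least 50 CPM from at least 20 UMIs in 1 library or both). Differences are log2 ratios of CPM, SCD over wild-type, with a pseudocount of 5 CPM, and a pair is counted from a 2-fold difference on that scale. Of the 73 pairs, 8 were at least 2-fold higher in SCD and 6 at least 2-fold lower, where all genes that passed the filter gave 6.36% higher and 3.68% lower over the same classes. The 8 higher pairs were Ctse in plasmacytoid DCs, classical monocytes, neutrophils and erythroid cells, Ctsd in non-classical monocytes and red pulp macrophages, Ctsl in classical monocytes and Cst3 in mature DCs. The 6 lower pairs were Ctsd, Ctsz and Cst3 in neutrophils and Ctsh, Ctss and Cst3 in erythroid cells. A pair that passed the filter through 1 library alone had to differ, so the counts are not evidence about the genes. Without the erythroid class, an alternative added after the data were seen, 7 of 65 pairs were higher and 3 lower, where all genes gave 1.74% higher and 3.31% lower over the 9 classes.

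**Figure D1:**
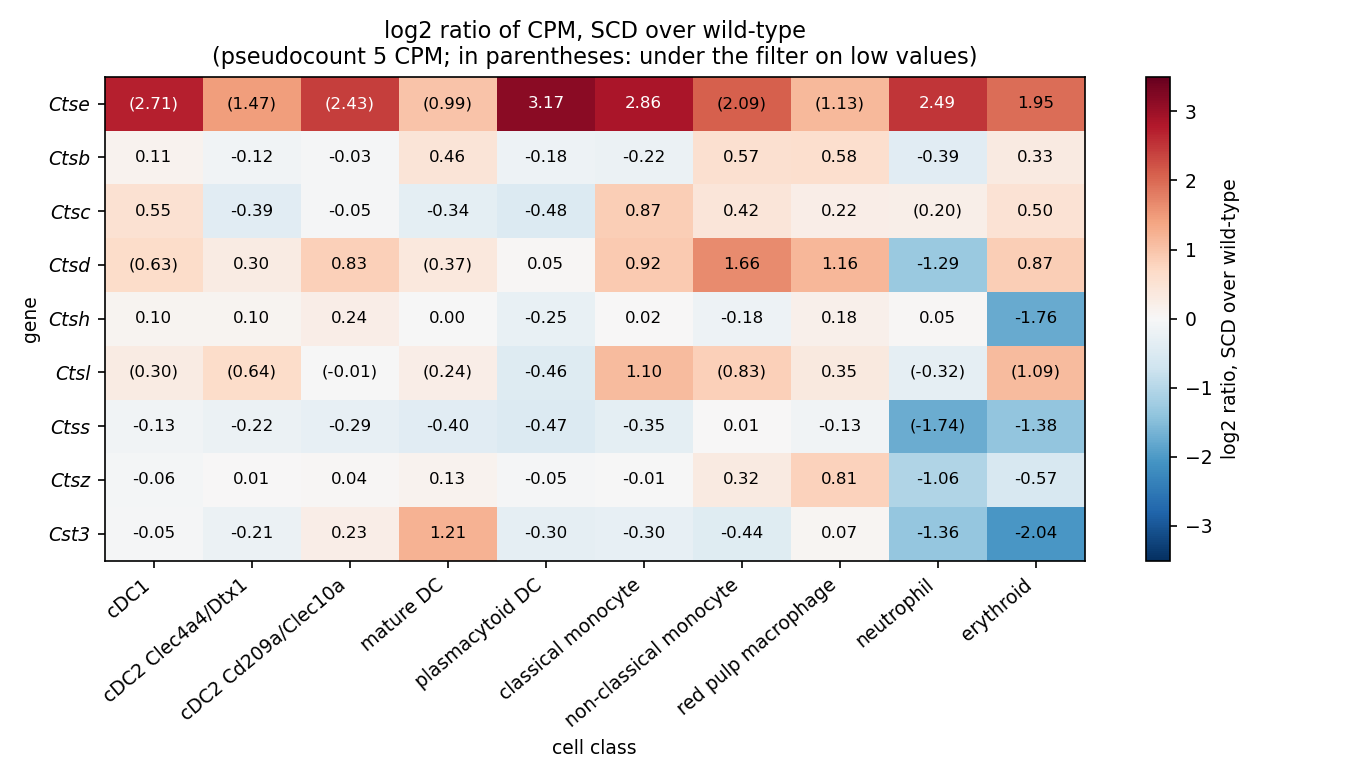
Log2 ratio of CPM, SCD over wild-type, for the 9 genes (rows) in the 10 cell classes (columns), with values under the filter on low values in parentheses. The Ctse row is above 0 in every class, the neutrophil and erythroid columns hold the values at or below -1, and most other values lie between -0.5 and 1.

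The share of all genes that passed the same 2-fold limit differed widely between classes. In cDC1 no gene of the list passed it, with 1.23% of all genes higher and 0.432% lower. In cDC2 of the Clec4a4 and Dtx1 type none passed, against 0.44% and 0.235% of all genes, and in cDC2 of the Cd209a and Clec10a type none passed, against 0.659% and 1.79%. In mature DCs 1 of 6 tested was higher (2.97% of all genes higher, 2.39% lower), in plasmacytoid DCs 1 of 9 (1.96% and 0.392%), and in classical monocytes 2 of 9 (1.05% and 1.79%). In non-classical monocytes 1 of 7 was higher (2.16% and 1.72%) and in red pulp macrophages 1 of 8 (3.05% and 5.14%). In neutrophils 1 of 6 was higher and 3 were lower, where 1.84% of all genes were higher and 19.8% lower and the median log2 ratio of all genes was -0.39. In erythroid cells 1 of 8 was higher and 3 were lower, where 54.3% of all genes were higher and 7.47% lower and the median of all genes was 1.12.

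Ctse, the aspartic cathepsin of endosomes, was higher in SCD in each of the 10 classes. In plasmacytoid DCs it was at 4.98 CPM (40 UMIs) in wild-type and 84.7 CPM (484 UMIs) in SCD, a 17.0-fold difference (interval 12.3 to 24.1). In classical monocytes it was at 4.18 CPM in wild-type and 61.7 CPM in SCD, 14.8-fold (9.91 to 23.0). In neutrophils it was at 13.9 CPM (217 UMIs) and 101.0 CPM (5941 UMIs), 7.28-fold (6.36 to 8.38). Erythroid cells held the highest level in both libraries, 181 and 713 CPM, 3.94-fold (3.11 to 5.05), but its log2 ratio of 1.95 there became 0.77 with median-of-ratios scaling and 0.83 with no upper limit on genes per cell, both under the 2-fold limit.

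The other 6 classes had Ctse under the filter on low values in both libraries. In cDC1 it was at 1.18 CPM from 3 UMIs and at 35.5 CPM from 112 UMIs, and the interval of the ratio ran from 10.0 to 148. In cDC2 of the Cd209a and Clec10a type it was at 1.98 and 32.5 CPM (4 and 44 UMIs), and in cDC2 of the Clec4a4 and Dtx1 type at 0.912 and 11.4 CPM (10 and 18 UMIs). Non-classical monocytes held 2.63 and 27.4 CPM (8 and 10 UMIs). The lowest SCD levels were in red pulp macrophages, 1.64 and 9.52 CPM from 1 and 4 UMIs, and in mature DCs, 0.518 and 5.97 CPM from 2 and 3 UMIs. The interval of the ratio was above 1 in 9 classes and included 1 in red pulp macrophages (5.79, 0.573 to 285). Ordered by level in SCD, erythroid cells, neutrophils, plasmacytoid DCs and classical monocytes were each separated from the next class by intervals that did not overlap, while the 6 classes from cDC1 down to mature DCs overlapped with their neighbours.

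**Figure D2:**
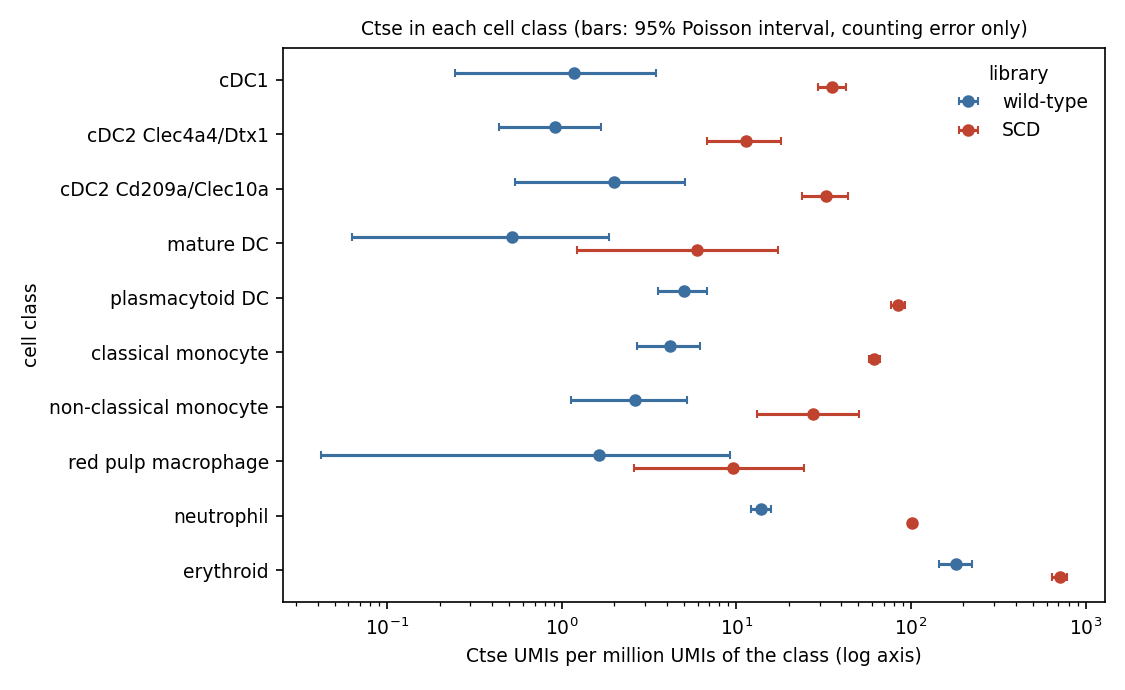
Ctse level (CPM, log axis) in each cell class of the wild-type (blue) and SCD (red) library, with 95% Poisson intervals of the UMI count. The SCD point lies to the right of the wild-type point in all 10 classes, and the intervals overlap in mature DCs and red pulp macrophages.

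Shares of cells with a Ctse UMI were compared after every cell was thinned to 1000 UMIs in a single random draw. This was done since SCD neutrophils were deeper (median 6869 UMIs) than wild-type neutrophils (2448). After thinning, 1.35% of 4300 wild-type neutrophils (interval 1.03 to 1.74) and 10.7% of 7069 SCD neutrophils (10.0 to 11.5) had a Ctse UMI, after 46 and 12 cells below that depth were dropped. At full depth these shares were 4.44% and 51.5%. In plasmacytoid DCs the thinned shares were 0.556% and 9.83%, and in classical monocytes 0.537% and 5.09%. In mature DCs, 0 of 616 wild-type cells had a Ctse UMI, which allows a share of up to 0.487% by the limit of 3 counts and 0.597% by the exact interval, and 2 of 85 SCD cells did (2.35%). Red pulp macrophages, whose median depth before thinning was 1332 and 1544 UMIs, had 0 of 206 wild-type cells, which allows up to 1.46% and 1.77% by the same limits, and 1 of 136 SCD cells (0.735%). Erythroid cells had 14.0% of 57 and 43.1% of 72, and another draw from the same cells gave 8.77% and 43.1%. The order of the classes with few cells changed with the depth of thinning and between random draws. Of 55 SCD non-classical monocytes, 1 (1.82%) had a Ctse UMI at 1000 UMIs per cell, and 3 (5.45%) in a new draw made with doublets left out. Leaving out doublets removed none of the 55, so both draws used the same cells. At 2000 UMIs per cell the share was 9.80%. Neutrophils had 10.7%, 10.5% without doublets and 19.8% at 2000 UMIs per cell.

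A set of erythroid transcripts was also higher in SCD in each class, and Ctse was therefore set against it as a gauge. In cDC1 the set was at 20.9 and 39.3 CPM and in neutrophils at 42.3 and 51.5 CPM. The gauge was the sum of 9 erythroid genes, among them Alas2, the first enzyme of heme synthesis in red cells, and Klf1, a transcription factor of the lineage. Erythroid cells held 2.25 Ctse UMIs per 100 gauge UMIs in wild-type (1.79 to 2.80) and 7.13 in SCD (6.41 to 7.90). SCD neutrophils held 196 per 100 (188 to 205), SCD classical monocytes 137 (122 to 154), SCD plasmacytoid DCs 135 (118 to 155), SCD cDC1 90.3 (69.3 to 118) and SCD cDC2 of the Cd209a and Clec10a type 81.5 (53.5 to 124). Lower values were found in SCD non-classical monocytes, 27.0 (12.0 to 55.4), and SCD cDC2 of the Clec4a4 and Dtx1 type, 23.4 (13.2 to 39.4). The intervals of these 7 classes lay above that of the erythroid class of the same library. In wild-type, neutrophils (32.8), classical monocytes (23.6), plasmacytoid DCs (19.9) and non-classical monocytes (10.1) also had intervals above that of erythroid cells. The ratio was 5.00 (1.33 to 13.3) in SCD red pulp macrophages and 10.0 (1.95 to 32.2) in SCD mature DCs, and both intervals include the erythroid value. Against Hba-a1 alone, SCD neutrophils held 107 Ctse UMIs per 100 and SCD erythroid cells 0.627. Unlike the set, Hba-a1 was lower in SCD in mature DCs (361 and 67.6 CPM) and in cDC2 of the Cd209a and Clec10a type (134 and 72.4 CPM).

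**Figure D3:**
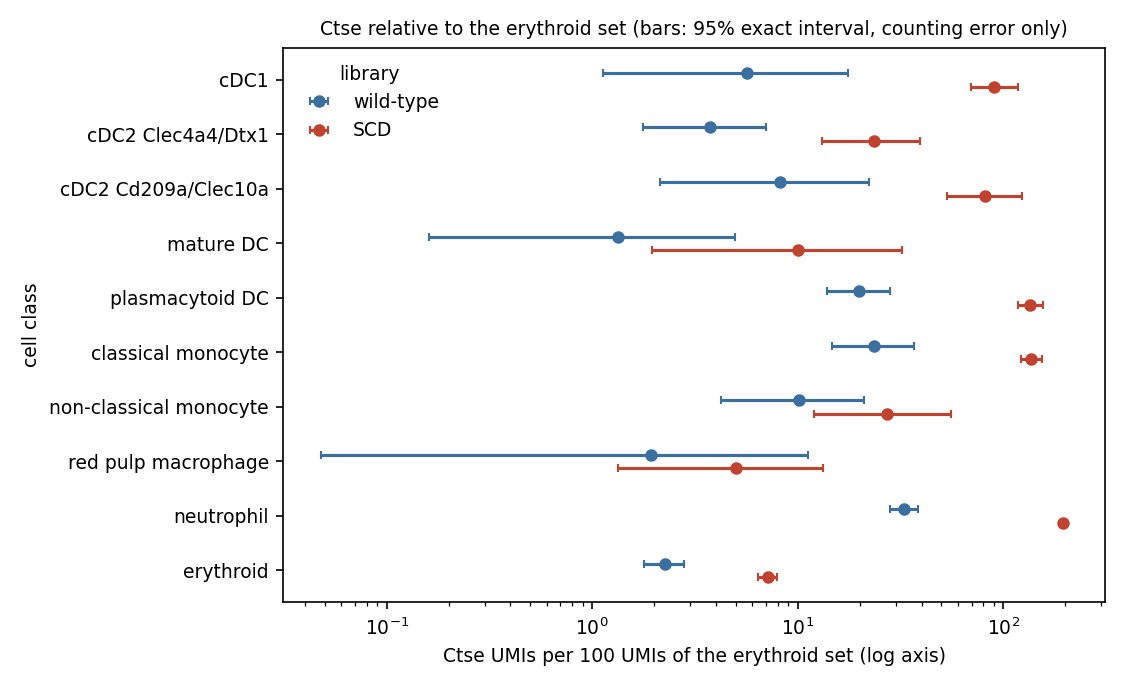
Ctse UMIs per 100 UMIs of 9 erythroid genes (log axis) by cell class in the wild-type (blue) and SCD (red) library, with exact 95% intervals. In SCD the erythroid class stands at 7.13 while neutrophils, classical monocytes and plasmacytoid DCs stand above 130.

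Neutrophil transcripts were also higher in SCD in 7 of the 9 classes other than neutrophils. The sum of S100a8, S100a9, Ngp, Camp and Ltf, a set added after the data were seen, was at 618 CPM in wild-type and 3766 CPM in SCD plasmacytoid DCs, at 642 and 3610 CPM in classical monocytes, and at 524 and 3492 CPM in cDC1. It was lower in SCD in non-classical monocytes (5921 and 4790 CPM) and erythroid cells (9924 and 7965 CPM), where Ctse was higher. SCD neutrophils held 0.0244 Ctse UMIs per 100 UMIs of that set, against 2.25 in SCD plasmacytoid DCs, 1.71 in SCD classical monocytes, 1.02 in SCD cDC1 and 0.106 in SCD mature DCs. Of 6522 genes that passed the filter in at least 1 class, 10 were at least 2-fold higher in SCD in 9 or more of the 10 classes with no filter on level, and Ctse was in 9. The other 9 were the neutrophil granule genes Camp, Ngp, Ltf, Prtn3, Elane and Mpo, with Ly6g, Birc5 and Igha. Among these, Camp stood at 31.3 and 299 CPM in plasmacytoid DCs and at 19785 and 37809 CPM in neutrophils.

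Within neutrophils, Ctse was higher in SCD in every stage and cluster, whereas Ctsd, Cst3 and Ctsz differed by stage but by less than 2-fold within every cluster. Named from markers, dividing precursors made up 1.54% of wild-type and 10.2% of SCD neutrophils, immature cells 8.97% and 43.3%, and mature cells 89.5% and 46.5%. Ctse was at 0 CPM in wild-type and 48.1 CPM in SCD dividing precursors, at least 26.0-fold higher against a floor of 3 UMIs over the stage, and the lower bound of the exact interval was 21.1-fold. It was at 9.56 and 107 CPM in immature cells and at 17.9 and 148 CPM in mature cells. Across the 7 neutrophil clusters the wild-type levels ran from 0 to 45.7 CPM and the SCD levels from 48.1 to 167 CPM, and the log2 ratio lay between 1.76 and 3.51. The intervals of the highest wild-type level (cluster 16, 31.6 to 63.8 CPM) and the lowest SCD level (cluster 10, 44.7 to 51.7 CPM) overlapped. Clusters of a library are not replicates. At the wild-type mix of the 3 stages, Ctse was 9.13-fold higher in SCD (13.9 against 127 CPM).

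Ctsd, the main aspartic protease of lysosomes, was at 731 CPM in wild-type and 296 CPM in SCD neutrophils, a log2 ratio of -1.29. Inside the 7 clusters its log2 ratio lay between -0.12 and 0.20, and none passed the 2-fold limit in either direction. The level was lowest in dividing precursors, 96.7 and 99.9 CPM, and highest in mature cluster 4, 1174 and 1202 CPM. At the wild-type mix of the 7 clusters the totals were 731 and 745 CPM.

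Cst3 and Ctsz were likewise closer within clusters than over the class. Cst3 was at 1393 and 538 CPM in all neutrophils (log2 ratio -1.36), yet between -0.40 and 0.20 inside clusters, and at the wild-type mix of clusters it was at 1393 and 1213 CPM. In mature cluster 4 it was at 2229 and 1690 CPM, with an interval of the ratio of 0.71 to 0.81, and over the mature stage as a whole at 1936 and 829 CPM. Ctsz, a carboxypeptidase, was at 107 and 48.7 CPM (-1.06), between -0.45 and 0.34 inside clusters, and at 107 and 129 CPM at the wild-type mix. Ctss was under the filter in neutrophils (49.2 and 11.2 CPM) and was at 49.2 and 54.6 CPM at the wild-type mix. Its lowest cluster value was -0.98, in mature cluster 16 (26.9 and 11.2 CPM). Ctsb was at 112 and 84.2 CPM and Ctsh at 104 and 108 CPM in all neutrophils. With 3 stages in place of 7 clusters the wild-type mix gave 731 and 535 CPM for Ctsd, 1393 and 688 CPM for Cst3 and 107 and 58.7 CPM for Ctsz, values that lie between those of the class and those of the 7 clusters.

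**Figure D4:**
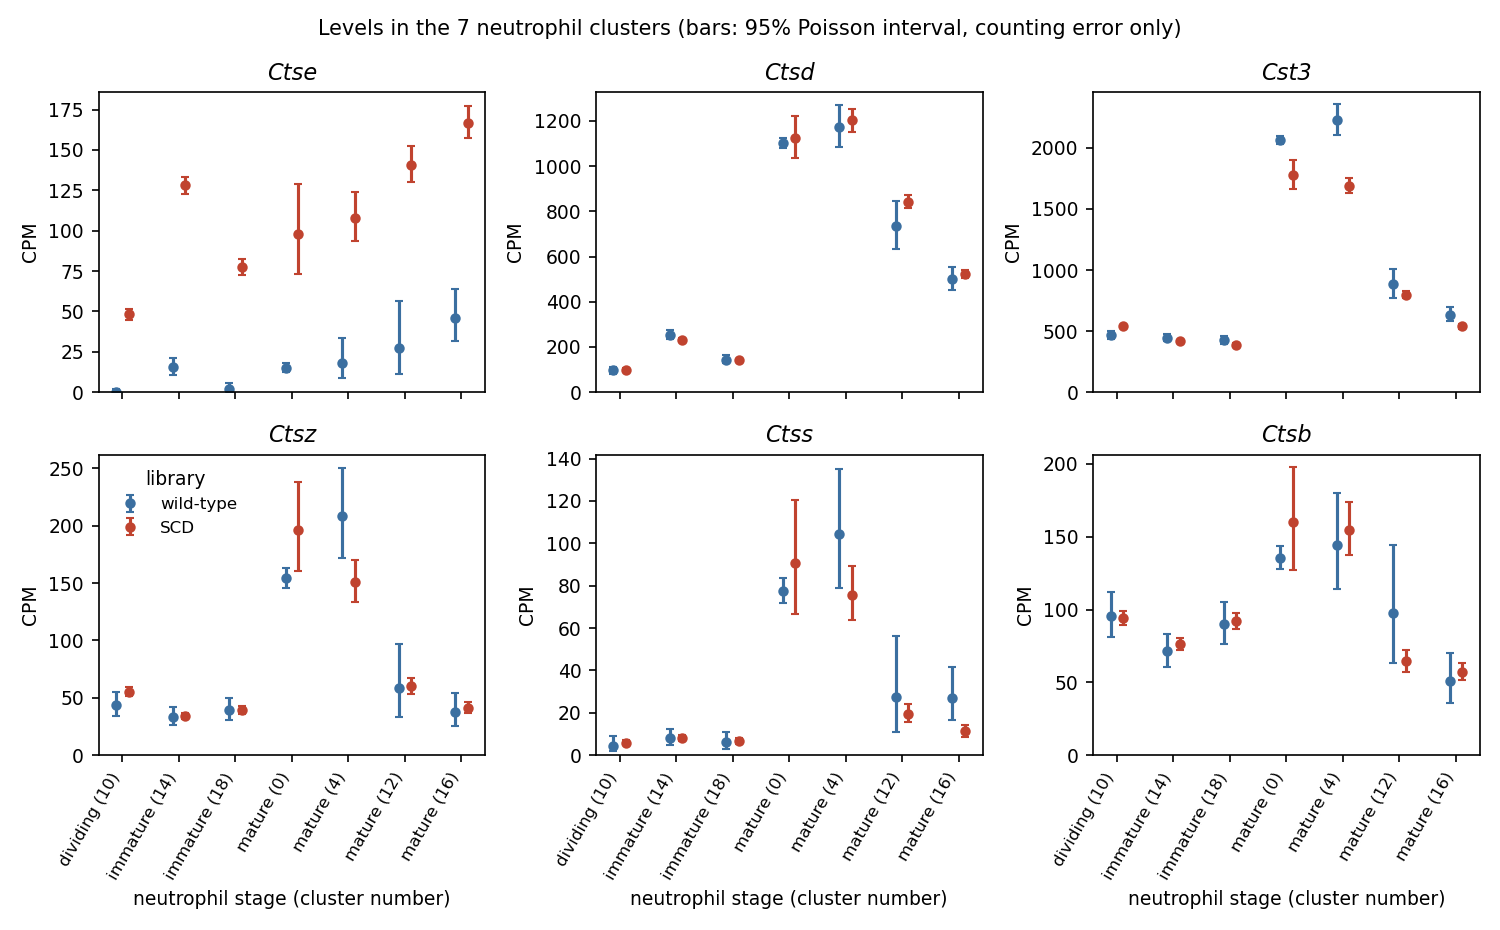
Levels (CPM) of 6 genes in the 7 neutrophil clusters of the wild-type (blue) and SCD (red) library, ordered by stage, with 95% Poisson intervals. Ctse is higher in SCD in all 7 clusters, while Ctsd, Cst3, Ctsz, Ctss and Ctsb are highest in the mature clusters 0 and 4 of both libraries.

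Red pulp macrophages held the highest Ctsb and Ctsd of all classes, and both were higher still in SCD. Ctsd stood at 2271 CPM in wild-type and 5077 CPM in SCD, a log2 ratio of 1.16 and a 2.24-fold difference (2.09 to 2.39). Ctsb, a cysteine protease with endo- and exopeptidase activity, stood at 6181 and 9268 CPM, with an interval of the ratio of 1.43 to 1.57. Ctsz stood at 571 and 1005 CPM, 1.76-fold (1.52 to 2.04). Ctsc was at 977 and 1141 CPM, Ctss at 1092 and 1000 CPM, Ctsh at 306 and 348 CPM, Ctsl at 90.4 and 117 CPM and Cst3 at 1973 and 2069 CPM, with log2 ratios between -0.13 and 0.35. Conventional DC markers in this class were at 7654 CPM in wild-type (12 of 14 detected) and 1150 CPM in SCD (8 of 14, with Flt3, Xcr1, Clec9a, Clec4a4, Ccr7 and Fscn1 at 0), while its own 13 markers, all detected in both, were at 30196 and 39016 CPM. The part of this makeup in the Ctsd and Ctsb values was not tested. Without the mitochondrial and ribosomal filters the log2 ratio of Ctsd was 0.76.

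Non-classical monocytes showed the largest Ctsd difference. Ctsd was at 214 CPM (651 UMIs) in wild-type and 688 CPM (251 UMIs) in SCD, a log2 ratio of 1.66 and a 3.21-fold difference (2.77 to 3.72). Ctsb was at 1616 and 2396 CPM, 1.48-fold (1.38 to 1.59), and Cst3 was lower, 9086 and 6709 CPM. Ctss was at 1916 and 1933 CPM. The 13 red pulp macrophage markers summed to 690 CPM (13 detected) in wild-type and 2742 CPM (7 detected) in SCD, with Vcam1, C1qa, C1qb, C1qc, Cd5l and Marco at 0 in SCD. Their part in the Ctsd value was not tested. The SCD library had 55 cells in this class.

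In classical monocytes, Ctsl, Ctsd and Ctsc were higher in SCD and Ctss and Cst3 lower. Ctsl, a cysteine endopeptidase, was at 29.95 and 69.7 CPM (log2 ratio 1.10, and 0.85 with a pseudocount of 20 CPM), Ctsd at 155 and 297 CPM (0.92), and Ctsc, the dipeptidyl peptidase that activates granule proteases, at 491 and 898 CPM (0.87). Ctss was at 1991 and 1560 CPM and Cst3 at 3792 and 3078 CPM. Cluster 3 held 527 of the 560 wild-type cells and cluster 23 held 877 of the 903 SCD cells, so the class was compared mostly across clusters. Within cluster 3, Ctsd was at 153 and 353 CPM, Ctsc at 492 and 633 CPM, Ctsl at 29.5 and 32.4 CPM and Ctss at 2038 and 2054 CPM. Within cluster 23, Ctsd was at 185 and 296 CPM, Ctsc at 471 and 905 CPM, Ctsl at 36.4 and 70.7 CPM and Ctss at 1311 and 1548 CPM, so the lower Ctss of the class was not seen in either cluster. Cst3 was at 3829 and 3705 CPM in cluster 3 and at 3246 and 3061 CPM in cluster 23. Conventional DC markers of the class were at 2576 and 949 CPM (14 and 14 of 14 detected) and non-classical monocyte markers at 1146 and 547 CPM (8 and 8 of 8 detected). Markers of dividing or precursor monocytes were higher in SCD, at 43.3 and 348 CPM (7 and 7 of 7 detected). The part of these marker sets in the values was not tested. Ctse was higher in SCD in both, 4.47 and 36.0 CPM in cluster 3, and 0 and 62.4 CPM in cluster 23, at least 7.99-fold against a floor of 3 UMIs and 6.48-fold at the lower bound of the exact interval.

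Among DCs, Cst3 in mature DCs and Ctse in plasmacytoid DCs were the only pairs that passed both the filter and the 2-fold limit. In cDC1, which held far more Cst3 than any other class, it was at 26599 and 25777 CPM. Ctss, the protease of invariant chain processing, was at 946 and 815 CPM in cDC2 of the Clec4a4 and Dtx1 type, at 1491 and 1215 CPM in cDC2 of the Cd209a and Clec10a type and at 430 and 393 CPM in cDC1. Ctsd was at 67.5 and 124 CPM in cDC2 of the Cd209a and Clec10a type (0.83).

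Cst3 in mature DCs was at 4411 CPM in wild-type and 10191 CPM in SCD, a 2.31-fold difference (2.24 to 2.38) and a log2 ratio of 1.21. The 8 cDC1 markers summed to 575 and 481 CPM in this class and the markers of cDC2 of the Cd209a and Clec10a type to 168 CPM (7 of 7 detected) and 328 CPM (4 of 7, with Cd209a, Clec10a and Mgl2 at 0). Their part in the Cst3 value was not tested. Ctsh, an aminopeptidase, was at 1112 CPM in both libraries of this class, its highest level in either. Cells with no UMI of the erythroid gauge gave a log2 ratio of 0.81 for Cst3.

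Plasmacytoid DCs were set apart by Ctsl, at 1173 CPM in wild-type and 853 CPM in SCD, against at most 117 CPM in any other class compared. Ctss was at 801 and 576 CPM, Ctsc at 127 and 89.6 CPM and Ctsh at 1054 and 887 CPM, log2 ratios of -0.47, -0.48 and -0.25. The 14 conventional DC markers of this class were at 14569 and 7672 CPM (13 detected in each, Clec4a4 at 0 in both) and the 6 markers of dividing DCs at 62.9 and 698 CPM, and their part in these values was not tested. The class was made of clusters 9 (650 and 339 cells) and 17 (70 and 252 cells). Within cluster 9, Ctsl was at 1298 and 1221 CPM, Ctss at 795 and 690 CPM, Ctsc at 134 and 115 CPM and Ctsh at 1104 and 1119 CPM. Within cluster 17, Ctsl was at 133 and 456 CPM, Ctss at 856 and 454 CPM and Cst3 at 5183 and 1928 CPM. These genes, Ctsb and Ctsd differed more in that cluster than over the class, and Ctsc, Ctsh, Ctsz and Ctse less. Ctsc was at 68.4 and 62.5 CPM and Ctsh at 637 and 636 CPM in cluster 17, so the lower Ctsh of the class was not seen in either cluster. Ctse stood at 5.02 and 101.2 CPM in cluster 9 and at 4.64 and 66.9 CPM in cluster 17.

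**Figure D5:**
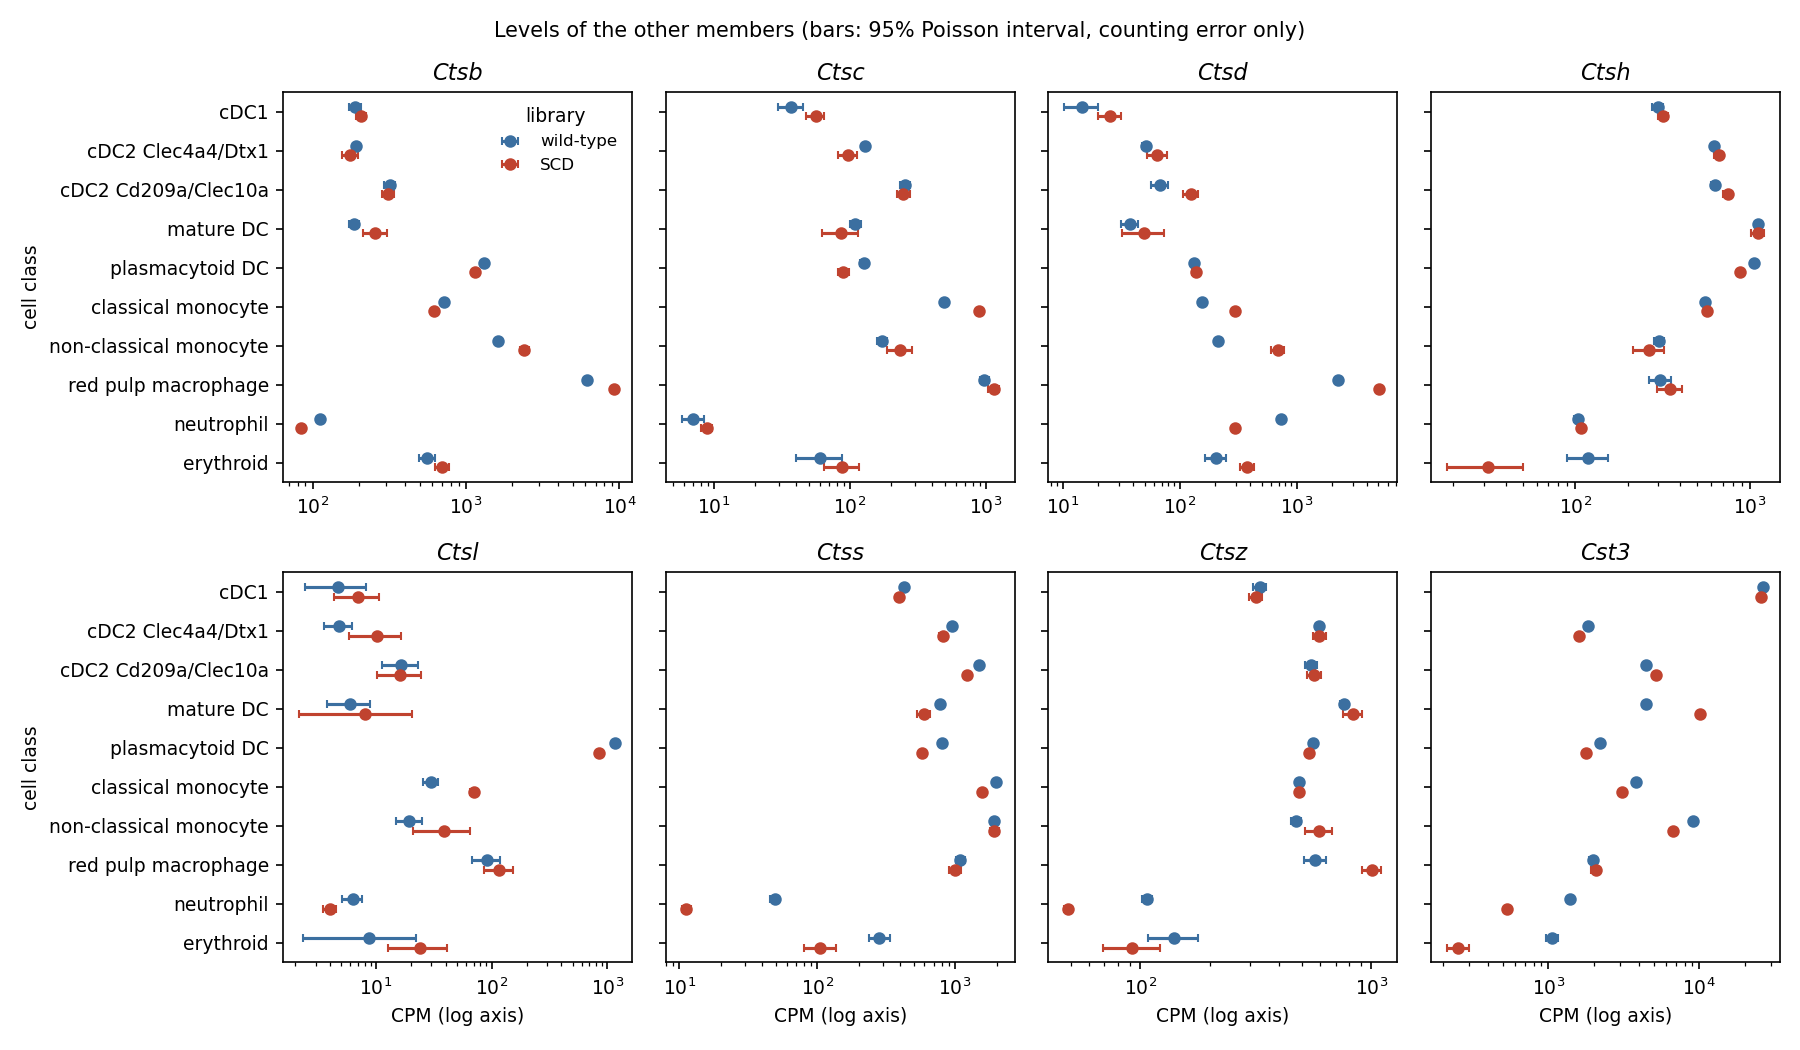
Levels (CPM, log axis) of the 8 genes other than Ctse in each cell class of the wild-type (blue) and SCD (red) library, with 95% Poisson intervals. Ctsd and Ctsb peak in red pulp macrophages, Ctsl in plasmacytoid DCs and Cst3 in cDC1, in both libraries.

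In erythroid cells, Cst3 was at 1057 and 254 CPM, Ctss at 282 and 106 CPM and Ctsh at 118 and 31.5 CPM, the lower values in SCD. Over the alternatives their log2 ratios ran from -3.19 to -0.22, from -2.48 to 0.10 and from -2.71 to -0.17. The 14 conventional DC markers moved with them, at 6823 CPM in wild-type (13 detected, Fscn1 at 0) and 133 CPM in SCD (9 detected, Xcr1, Cd209a, Clec4a4, Ccr7 and Fscn1 at 0), and their part in these values was not tested. Ctsb was at 558 and 700 CPM and Ctsd at 205 and 378 CPM, with log2 ratios (0.33 and 0.87) below the median of all genes of the class. When the listed genes were kept among the variable genes for clustering, the log2 ratio of Ctss turned to 0.10.

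The genes whose levels followed each member most closely over the 20 values of class and library (Pearson r of log2(CPM + 5), among 6413 genes, given as a description because classes of 1 library share free RNA and depth) differed by member. For Ctse these were Cenpe (r = 0.92), Spc24 (0.89) and Hist1h1e (0.89), genes of dividing cells. For Ctss it was Dusp22 (0.95), for Ctsz Parp9 (0.94), for Ctsh Syngr2 (0.93), for Ctsl Lefty1 (0.92), for Ctsd Tbc1d2b (0.91), for Ctsc Cndp2 (0.91), for Ctsb Laptm4a (0.90) and for Cst3 Slc8b1 (0.86). Genes within 500 kb of Ctse did not share its difference. Outside the erythroid class, 7 of them passed the filter in at least 1 class, and only Nucks1 was at least 2-fold higher in SCD in any, in 1 of its 9 classes. Rab7b, 13190 bases from Ctse, had a log2 ratio of 0.10 in the 1 class where it was tested.

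Another 115 lysosomal genes in 6 lists gave the setting. In red pulp macrophages 6 of 68 that passed the filter were at least 2-fold higher and 3 lower (median log2 ratio 0.12, all genes -0.06), beside 3.05% and 5.14% of all genes. The higher genes included Cd63, a membrane protein of late endosomes, at 65.8 and 433 CPM, Lipa, the lysosomal acid lipase, at 380 and 988 CPM, and Igf2r, the receptor that sorts hydrolases, at 11.5 and 54.8 CPM. Napsa, an aspartic protease, was lower, at 150 and 21.4 CPM from 91 and 9 UMIs. In non-classical monocytes 5 of 57 were higher and none lower (median 0.33, all genes -0.02), beside 2.16% and 1.72% of all genes. Among the higher genes were Cstb, the cytosolic inhibitor cystatin B, at 108 and 400 CPM, Lipa at 224 and 655 CPM and Dnase2a, a lysosomal nuclease, at 34.2 and 107 CPM.

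In neutrophils 11 of 41 were at least 2-fold lower and 2 higher (median -0.49, all genes -0.39), beside 19.8% and 1.84% of all genes. These genes were not recomputed at a fixed mix of stages or clusters. Ctsa, which protects lysosomal glycosidases, was lower (119 and 24.4 CPM), as were Ppt1, a thioesterase, at 242 and 58.4 CPM, and Gm2a, the GM2 activator, at 425 and 61.2 CPM. The 2 higher genes were Ctsg, a serine protease of azurophil granules, at 14.8 and 101 CPM, and Serpinb1a, its inhibitor, at 273 and 601 CPM. In mature DCs 4 of 48 were higher and 1 lower (median 0.16, all genes -0.03), beside 2.97% and 2.39% of all genes. The inhibitors Serpinb9 (229 and 618 CPM), Serpinb6b (260 and 529 CPM) and Serpinb1a (14.2 and 75.6 CPM) were higher, and so was Gusb, a glucuronidase, at 57.0 and 139 CPM. In cDC1, cDC2 of the Clec4a4 and Dtx1 type and plasmacytoid DCs none of 42, 46 and 46 passed the 2-fold limit in either direction. Of all genes, 1.23%, 0.44% and 1.96% were higher in these classes and 0.432%, 0.235% and 0.392% lower. In cDC2 of the Cd209a and Clec10a type 1 of 48 was higher and 1 lower, beside 0.659% and 1.79% of all genes. In classical monocytes 1 of 50 was higher, beside 1.05% of all genes higher and 1.79% lower. In erythroid cells 2 of 31 were higher and 5 lower, beside 54.3% and 7.47% of all genes, with a median of 0.29 where all genes had 1.12.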

How the data were processed

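Spleen cells of 1 wild-type and 1 SCD mouse were profiled with 10x Genomics 3′ v3.1 chemistry. The authors aligned reads and counted UMIs with Cell Ranger 4.0.0 on GRCm38.p6, per the submitters' processing notes, and deposited matrices of UMI counts that had not been normalized. Cells with 500 to 5000 genes, at most 15% mitochondrial and at most 30% ribosomal UMIs were kept. They were scaled with scran 1.30.0 (R 4.3.3) and clustered in scanpy 1.11.5 (2000 variable genes without the genes described or the listed lysosomal genes, 30 principal components, 15 neighbours, Leiden resolution 1), with igraph 0.11.9, numpy 2.4.6 and scipy 1.17.1. Clusters were named from marker lists, by a scoring rule written with the clusters in view, so names are rebuilt here. Doublets (Scrublet score above 0.25, a limit set after the scores were seen) were marked, 3.35% and 2.15%, and kept; clusters with over 30% of them stayed unnamed.

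UMIs were summed per library and class and divided by the class total. Levels have exact Poisson intervals, ratios exact conditional intervals and shares exact binomial intervals (95%). No test was run, with 1 sample per group. The ratio and interval steps were tested on simulated data. The 9 genes, the marker lists and the lysosomal lists were chosen with earlier results of these data known. List genes are named only when at least 2-fold apart in a class, at most 3 per list and class. For Ctse the 3 genes most like it are named, for other members 1, leaving out mitochondrial, ribosomal, immunoglobulin, T cell receptor and sex-linked genes. Alternatives covered scaling, pseudocount, filters, doublets, clustering, free RNA and depth. Some genes of the lists are not reported by name here.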

Additional observations from a re-analysis of the deposited data

Results flagged for a closer look

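Ctsd and Cst3 were at least 2-fold higher in some classes of the SCD library and at least 2-fold lower in others, and the difference between classes was not tested. For Ctsd the log2 ratio was 1.66 in non-classical monocytes, 1.16 in red pulp macrophages and -1.29 in neutrophils. For Cst3 it was 1.21 in mature DCs, -1.36 in neutrophils and -2.04 in erythroid cells. At the wild-type mix of the 7 neutrophil clusters the neutrophil values were 0.03 for Ctsd and -0.20 for Cst3.

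Ctse was also higher in SCD in cells that entered no comparison. B cell-like cells (21 wild-type and 288 SCD cells, too few for a comparison) held 11.2 CPM from 2 UMIs in wild-type and 133 CPM from 282 UMIs in SCD. The neutrophil set was at 737 and 27190 CPM in the same cells, and they held 1.52 and 0.490 Ctse UMIs per 100 UMIs of that set; its part in the Ctse value was not tested. Dividing monocyte-like cells (43 and 351 cells) held 0 and 37.0 CPM, and clusters left unnamed (504 and 486 cells) held 10.5 and 93.7 CPM. Cells over 5000 genes that passed the other filters (295 and 1220 cells) held 56.7 CPM (interval 53.3 to 60.2) and 96.9 CPM (94.7 to 99.2). These cells, left out by the upper limit, had 1058 Ctse UMIs in wild-type against 453 in the 9423 cells kept, and all kept cells held 7.45 and 89.1 CPM, so the libraries were closer in the cells left out. With no upper limit the log2 ratio of Ctse was 2.49 in neutrophils, 3.01 in plasmacytoid DCs, 2.82 in classical monocytes and 0.83 in erythroid cells. In dividing DC-like cells (126 and 16 cells) no Ctse UMI was counted in either library.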

How the results depend on the processing

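No paired analysis was possible because there was 1 sample per group. Ctse was at least 2-fold higher in 9 of 10 classes, in 7 with a pseudocount of 20 CPM, in 8 with resolution 2, with listed genes kept among the variable genes, with erythroid Ctse subtracted and with SCD UMIs thinned, and in 10 with a pseudocount of 1 CPM or no mitochondrial and ribosomal filters. It was higher in 8 of 9 classes with a minimum of 1000 genes or no upper limit on genes, in 6 of 6 with each library clustered on its own, and in 8 of 8 in cells with no gauge UMI. The 8 higher pairs became 14 with no filter on low values and 5 in cells with no UMI of the erythroid gauge, where 8 classes could be compared. The 6 lower pairs became 2 with a minimum of 1000 genes per cell, and 3 in each of these cases: no mitochondrial and ribosomal filters, listed genes kept among the variable genes, no erythroid class, and neutrophils at the wild-type mix of 7 clusters. The classes compared and the pairs that entered differed between settings. The shares of all genes were recomputed only without the erythroid class, so these counts are a description and not a result about the genes. The wild-type mix of 7 clusters gave log2 ratios of 0.028 for Ctsd and 0.26 for Ctsz in neutrophils, where the main values were -1.29 and -1.06. Keeping the listed genes gave 0.10 for Ctss in erythroid cells, where the main value was -1.38. The share of SCD neutrophils with a Ctse UMI was 10.7%, and it was 51.5% without thinning and 19.8% at 2000 UMIs per cell. Ctse UMIs per 100 gauge UMIs in SCD neutrophils were 196, 107 with Hba-a1 and 0.0244 with the neutrophil set as gauge. The log2 ratio of Ctse in neutrophils at the wild-type mix was 2.80 with 3 stages and 2.47 with 7 clusters. Subtracting the Ctse expected from erythroid transcripts took its log2 ratio in red pulp macrophages from 1.13 to 0.00 and in mature DCs from 0.99 to 0.43. The causes were not tested. The number of UMIs limits Ctse in mature DCs and red pulp macrophages, and the single animal per group limits every comparison. Of 263 log2 ratios under alternatives, 220 moved by less than their interval, 40 by more and 3 changed sign, as given above.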
